A study of Mus musculus with 6 samples.

Results

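Mural cells, the contractile cells of the vessel wall, were followed through 10 marker genes in mRNA-seq libraries of mouse left ventricle. The 10 genes were taken by symbol from the deposited count table of 54929 rows. They comprise 5 markers of pericytes (Pdgfrb, Rgs5, Abcc9, Vtn and Cspg4) and 5 of smooth muscle (Myh11, Tagln, Cnn1, Acta2 and Mylk). All 10 were among the 14807 genes counted deeply enough to be tested.

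All libraries came from the left ventricle of wild-type C57BL/6 mice that had undergone transverse aortic constriction (TAC), an operation that narrows the aorta and loads the left ventricle with pressure. The control group was given an anti-IgG antibody (libraries anti-IgG 1, 2 and 3). The other group was given anti-PD-1, an antibody to a receptor that restrains T cells (libraries anti-PD-1 1, 2 and 3). Both were given by intraperitoneal injection at 10 mg/kg, once every 3 days, from 2 weeks after TAC, and the samples carry a time label of 5 weeks. Both groups therefore share the surgery, and no unoperated heart was analysed here. Whether each library is a different mouse is not stated in the labels. The p-values therefore cover the spread between these libraries alone.

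Pericytes lie against the endothelium of capillaries. They are kept there by platelet-derived growth factor B, which endothelial cells release and which acts on the receptor encoded by Pdgfrb. Smooth muscle cells encircle arteries and arterioles. They contract when the light chain of smooth muscle myosin is phosphorylated, and the serum response factor SRF with its coactivator myocardin drives many of their contractile genes. No marker is exclusive: smooth muscle also expresses Pdgfrb and Rgs5, and Acta2 is switched on in activated fibroblasts.

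Library totals were 18063344 to 21093163 reads. Levels are given as CPM, read counts scaled to library size by the trimmed mean of M values (TMM). Means are followed by their SD over 3 libraries per group. Differences are log2 fold changes, anti-PD-1 against anti-IgG, from edgeR's quasi-likelihood test, with p-values adjusted by Benjamini-Hochberg over all tested genes and 0.05 as the threshold. Of all tested genes 21.1% passed that threshold, 10.3% higher and 10.8% lower with anti-PD-1.

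Vtn was the only member past the threshold, and it fell. Of the 5 pericyte markers, 0 rose, 1 fell and 4 did not pass. Of the 5 smooth muscle markers, 0 passed by edgeR, against 1 with an unadjusted p under 0.05, 1 by DESeq2 and 0 by limma-voom. In each of these counts the gene was Acta2 where there was one. The median log2 fold change was 0.24 for the pericyte markers and -0.08 for the smooth muscle markers, beside -0.03 for all tested genes. In bulk tissue, fewer cells of a type and less RNA per cell cannot be told apart.

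**Figure D1:**
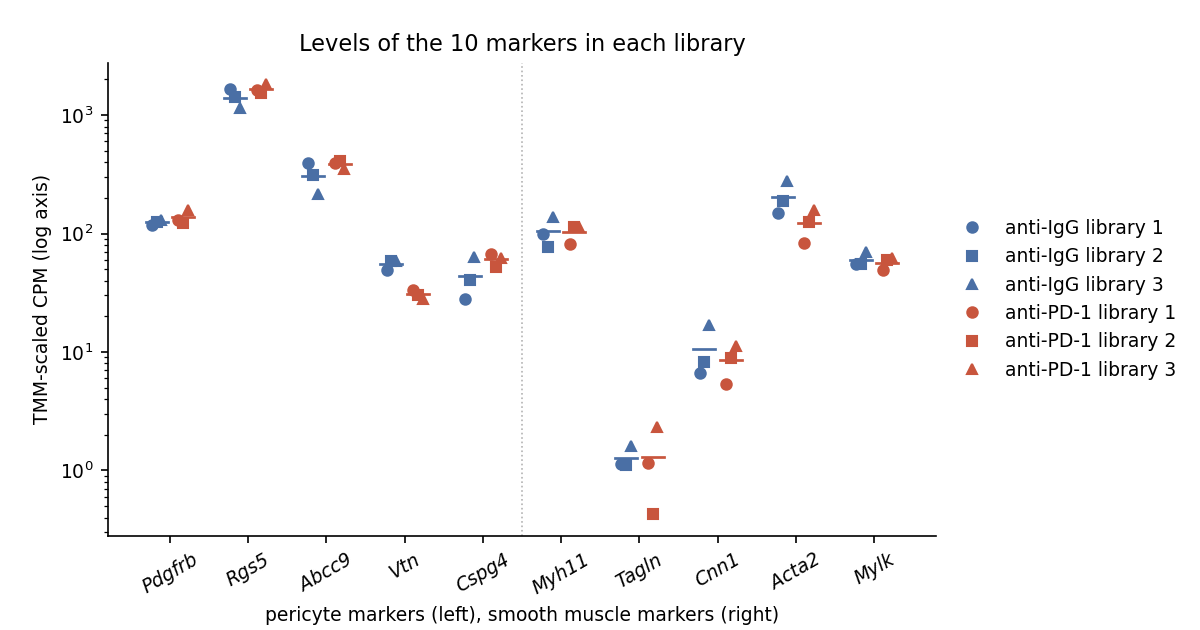
Levels of the 10 markers in each library, in TMM-scaled CPM on a log axis, with 1 point per library and the group mean as a bar. The Vtn points of the groups are separate (28.06 to 33.25 with anti-PD-1 and 49.17 to 58.57 with anti-IgG), and those of the other 9 markers overlap.

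Vtn (chr11:78499091-78502324, plus strand, mm10) encodes vitronectin, a secreted glycoprotein of plasma and matrix that pericytes of several organs express. Its level was 49.17, 58.57 and 58.29 CPM in anti-IgG libraries 1, 2 and 3, and 33.25, 30.44 and 28.06 CPM in anti-PD-1 libraries 1, 2 and 3. Every anti-PD-1 value lay below every anti-IgG value, a separation that 41.0% of all tested genes showed (20.2% higher and 20.8% lower with anti-PD-1). The mean was 55.34 ± 5.344 CPM with anti-IgG and 30.58 ± 2.601 CPM with anti-PD-1, a log2 fold change of -0.86 (SE 0.17 and edgeR adjusted p = 0.00927). Without anti-IgG library 2 the fold change was -0.83 and the adjusted p 0.0503. With 2030 bp in the authors' length column, Vtn is a short gene, and shorter genes tended to be lower with anti-PD-1 throughout the table (values below).

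Rgs5 (chr1:169655501-169695813, plus strand) encodes a regulator of G protein signalling that shortens the response to vasoconstrictors. It had 1655, 1407 and 1145 CPM in the anti-IgG libraries and 1621, 1530 and 1811 CPM in the anti-PD-1 libraries. Anti-IgG library 3 was the lowest and anti-PD-1 library 3 the highest, and the groups overlapped. The difference of 0.24 (log2, SE 0.23) did not pass the edgeR test (adjusted p = 0.477).

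Abcc9 (chr6:142587862-142702315, minus strand) encodes SUR2, the sulphonylurea receptor subunit of the ATP-sensitive potassium channel; cardiomyocytes use it too. Its level was 394, 308.8 and 214.4 CPM with anti-IgG and 394.4, 408.6 and 350.3 CPM with anti-PD-1. As with Rgs5, anti-IgG library 3 was the lowest of the 6, and anti-IgG library 1 lay among the anti-PD-1 values. It differed by 0.33 on the log2 scale (SE 0.24 and edgeR adjusted p = 0.332).

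Pdgfrb (chr18:61045150-61085061, plus strand), the receptor through which PDGF-B recruits pericytes, was the steadiest pericyte marker in the control group. It had 117, 124.7 and 130.8 CPM with anti-IgG and 129.9, 121.7 and 159.4 CPM with anti-PD-1. Only anti-PD-1 library 3 lay outside the anti-IgG range. The difference was 0.14 on the log2 scale (SE 0.18 and edgeR adjusted p = 0.599).

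Cspg4 (chr9:56865033-56899870, plus strand) encodes NG2, a transmembrane chondroitin sulphate proteoglycan of pericytes and glial progenitors. It had 28.22, 40.27 and 63.15 CPM with anti-IgG and 67, 52.41 and 62.5 CPM with anti-PD-1. Anti-IgG library 3 stood at the level of the anti-PD-1 libraries, and the other anti-IgG libraries stood below them. The log2 fold change was 0.47 (SE 0.26 and edgeR adjusted p = 0.219). Without anti-IgG library 3 it was 0.83 with an adjusted p of 0.0450, so that library decided the call.

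Acta2 (chr19:34241090-34255336, minus strand) encodes smooth muscle alpha-actin, the thin filament actin of vascular smooth muscle. Its level was 149.4, 187 and 277 CPM with anti-IgG and 82.91, 125.2 and 158.1 CPM with anti-PD-1. The groups overlapped only through anti-PD-1 library 3, which lay above anti-IgG library 1. The mean was 204.5 ± 65.59 CPM with anti-IgG and 122.1 ± 37.7 CPM with anti-PD-1, a log2 fold change of -0.74 (SE 0.28, unadjusted p = 0.0230, edgeR adjusted p = 0.0821). Acta2 passed the threshold with DESeq2 (adjusted p = 0.0446), without the count filter in edgeR (0.00997) and without anti-IgG library 1 in edgeR (-0.92, 0.0392). It also passed with the replicate number as a block, a setting given at the end. In 16 of 20 alternatives it did not pass. With 1 library left out, the log2 fold change ranged from -0.97 to -0.46 and the edgeR adjusted p from 0.0392 to 0.276.

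The Acta2 promoter is shown because its CArG boxes, the sequences SRF binds, link this marker to the SRF and myocardin genes described below. RefSeq promoter windows of 300 bases (GRCm38.p6, 250 before to 50 after the start) were matched for 7 of the 10 markers, all but Pdgfrb, Myh11 and Tagln. The motif searched was the CArG box, which reads the same on both strands. A full match was found in 1.629% of 32851 windows and in 0 of the 7 markers. A site with exactly 1 mismatch in the A and T core was found in 8.499% of windows, and among the 7 markers Acta2 held 2. The stretches of 30 bases below lie on the minus strand with the box in capitals. Their boxes begin 84 and 34 bases upstream of the start, and the stretches lie at chr19:34255438-34255467 and chr19:34255388-34255417.
Acta2 distal box: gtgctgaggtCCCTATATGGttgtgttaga
Acta2 proximal box: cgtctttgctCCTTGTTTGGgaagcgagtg
A match is a description of the letters and not evidence that SRF was bound in these hearts.

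Myh11 (chr16:14194535-14291372, minus strand) encodes the smooth muscle myosin heavy chain, the most specific of the contractile markers. It had 98.5, 76.58 and 137.5 CPM with anti-IgG and 81.76, 112.8 and 112.6 CPM with anti-PD-1. The anti-IgG values enclosed all the anti-PD-1 values. The log2 fold change was -0.03 (SE 0.23 and edgeR adjusted p = 0.951), and its sign turned when anti-IgG library 3 (0.23) or else anti-PD-1 library 1 (0.12) was left out.

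Mylk (chr16:34745210-35002420, plus strand) encodes myosin light chain kinase, which phosphorylates the light chain and so starts contraction. It had 54.96, 55.38 and 69.2 CPM with anti-IgG and 49.01, 59.69 and 61.59 CPM with anti-PD-1. Groups overlapped, and the log2 fold change was -0.08 (SE 0.18 and edgeR adjusted p = 0.791). The sign turned when anti-IgG library 3 (0.044) or else anti-PD-1 library 1 (0.027) was left out.

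Cnn1 (chr9:22099216-22109630, plus strand) encodes calponin 1, an actin-binding protein that restrains the myosin motor in differentiated smooth muscle. It was counted at 131, 147 and 336 reads with anti-IgG and 108, 167 and 234 reads with anti-PD-1, or 10.59 ± 5.456 and 8.525 ± 2.952 CPM. Anti-IgG library 3 was again the highest of the 6. The log2 fold change was -0.31 (SE 0.37 and edgeR adjusted p = 0.576), and without anti-IgG library 3 it was 0.20.

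Tagln (chr9:45929619-45936058, minus strand) encodes transgelin (SM22 alpha), an actin-binding protein of smooth muscle. It was counted at 22, 20 and 32 reads with anti-IgG and at 23, 8 and 48 reads with anti-PD-1. The lowest and the highest count were both in the anti-PD-1 group. Between groups the log2 fold change was 0.02 (SE 0.56 and edgeR adjusted p = 0.985). Its sign turned without anti-IgG library 1 (-0.07), anti-IgG library 2 (-0.08) or else anti-PD-1 library 3 (-0.69).

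Tagln shares most of its exonic sequence with other genes in the annotation. In GENCODE M21, 1349 of its 1988 exonic bases (67.86%) overlap exons of genes on the opposite strand, of which Gm48529 covers 1241 bases and Pcsk7 108. Gm48529 itself had 5 to 22 reads per library. Whether counting used strand, and how reads in such overlaps were treated, is not stated. Over the 639 bases that no other gene shares, Tagln had 12.52 to 75.12 reads per kb, if all its reads are placed there, against 757.3 to 2519 for Acta2. The part of the overlap in the low count was not tested, and the Tagln level is uncertain. Mylk shared 6.854% of its exonic bases with genes of the opposite strand, Abcc9 1.887%, and the other 7 markers 0%.

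Per unit length, Rgs5 was by far the most abundant marker in both groups. In the authors' FPKM (fragment counts scaled to gene length and library size) with anti-PD-1, the order was Rgs5 at 344.4 ± 34.84, Acta2 at 64.85 ± 20.34, Abcc9 at 43.4 ± 2.898, Pdgfrb at 23.69 ± 3.744 and Vtn at 14.25 ± 1.216. Below these came Myh11 at 12.74 ± 2.17, Cspg4 at 4.813 ± 0.6592, Mylk at 4.766 ± 0.5624, Cnn1 at 2.948 ± 1.033 and Tagln at 0.62 ± 0.4594. The library values overlapped between the neighbours Acta2 and Abcc9, Vtn and Myh11, and Cspg4 and Mylk.

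With anti-IgG the FPKM order placed Vtn above Pdgfrb and Cspg4 below Cnn1. The values were 287.1 ± 53.3 for Rgs5, 106.8 ± 34.39 for Acta2, 33.99 ± 10.12 for Abcc9, 25.36 ± 2.288 for Vtn and 21.09 ± 1.131 for Pdgfrb. They were 12.77 ± 3.842 for Myh11, 4.946 ± 0.683 for Mylk, 3.602 ± 1.865 for Cnn1, 3.422 ± 1.387 for Cspg4 and 0.6006 ± 0.1314 for Tagln. Neighbours that overlapped were Abcc9 and Vtn, Mylk and Cnn1, and Cnn1 and Cspg4. Rgs5 made up 75.1% to 81.57% of the summed pericyte FPKM, and Acta2 72.5% to 84.98% of the summed smooth muscle FPKM, so a sum over either set mainly follows 1 gene.

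Within each set the markers moved together only in part across libraries. After each gene was centred on its mean over the 6 libraries, the closest pairs were Myh11 and Mylk (root mean square difference of log2 CPM 0.169), Pdgfrb and Mylk (0.1762), and Rgs5 and Abcc9 (0.1818). The second of these crosses the sets. Cnn1 and Acta2 differed by 0.2896. Both were highest in anti-IgG library 3, as were Myh11 and Mylk, while Tagln was highest in anti-PD-1 library 3. Among 9200 tested genes whose mean log2 CPM was 3 or more, those nearest to Rgs5 were Dhx15 (0.04793), Mcm3ap (0.05114) and Tgs1 (0.05529). Those nearest to Myh11 were Yif1b (0.1017), P3h4 (0.1067) and Pkm (0.1072). None of these 6 genes is in the mural lists used here.

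**Figure D2:**
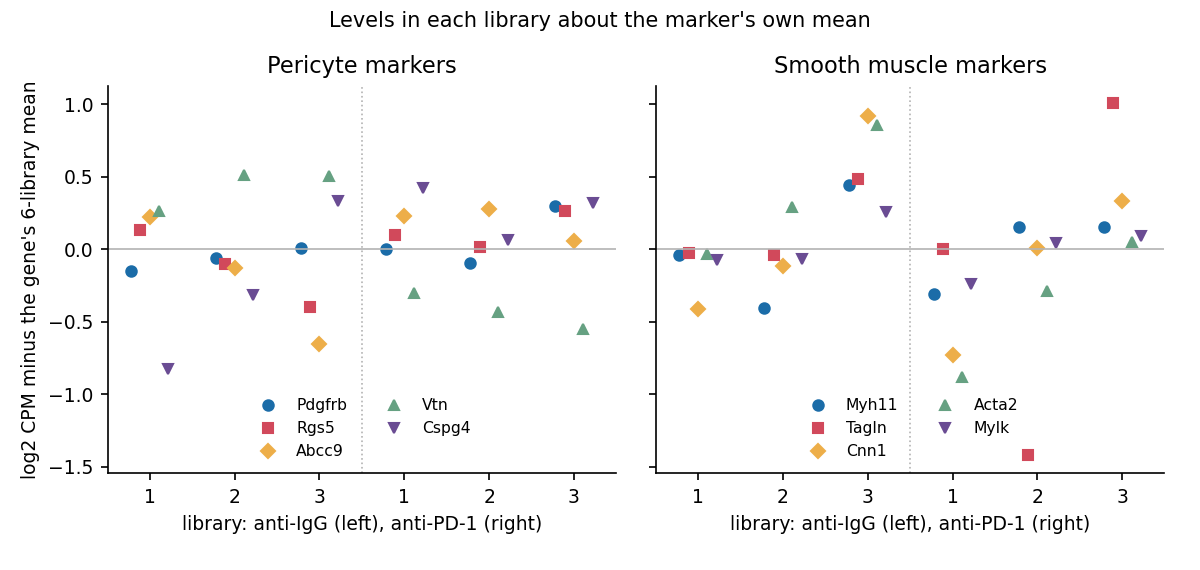
Log2 CPM of each marker minus its own mean over the 6 libraries, with pericyte markers on the left, smooth muscle markers on the right and 1 point per marker and library. Vtn lies above 0 in the 3 anti-IgG libraries and below 0 in the 3 anti-PD-1 libraries, and all 5 smooth muscle markers lie above 0 in anti-IgG library 3.

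The comparison of smooth muscle with pericyte markers was made per library, as the mean log2 CPM of the 5 smooth muscle markers minus that of the 5 pericyte markers. It was -2.82, -2.82 and -2.14 in the anti-IgG libraries and -3.29, -3.04 and -2.52 in the anti-PD-1 libraries. The mean was -2.59 ± 0.39 with anti-IgG, compared with -2.95 ± 0.39 for anti-PD-1. The difference of -0.36 was smaller than the spread within either group, and the groups overlapped. Without Tagln, whose level is uncertain, the levels were -1.732, -1.72 and -1.006 with anti-IgG and -2.293, -1.652 and -1.585 with anti-PD-1. Anti-PD-1 library 2 then lay above anti-IgG libraries 1 and 2, and the difference of the means was again -0.36. With all 5 smooth muscle markers the difference was -0.17 with the gene length trend (described below) removed and -0.15 with the transcript length trend removed. Leaving out anti-IgG library 3 gave -0.13, anti-PD-1 library 1 -0.19 and anti-PD-1 library 3 -0.57. Library 3 had the highest value in each group, though the labels tie nothing to that number.

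Ratios of marker pairs within a library are given as a description. The read ratio of Acta2 to Myh11, thin filament to thick filament, was 1.516, 2.442 and 2.015 with anti-IgG, compared with 1.014, 1.109 and 1.404 for anti-PD-1. The ratio of Vtn to Pdgfrb was 0.4203, 0.4697 and 0.4456 with anti-IgG, compared with 0.2559, 0.25 and 0.176 for anti-PD-1. Neither ratio overlapped between the groups, but Vtn alone was already separate, and how many other pairs of a short and a long gene separate was not computed. In both pairs the shorter gene is the numerator, and the authors' lengths are 1781 bp against 7599 bp for Acta2 and Myh11 and 2030 bp against 5478 bp for Vtn and Pdgfrb. Removal of the transcript length trend brought the log2 fold changes within the pairs closer, to -0.44 for Acta2 and -0.25 for Myh11, and to -0.34 for Vtn and -0.27 for Pdgfrb. With the gene length trend removed instead, they were -0.24 for Acta2 and -0.29 for Myh11, and -0.42 for Vtn and 0.04 for Pdgfrb. Taking out a trend that rises with length tends to bring a short and a long gene closer by construction. The part of length in these ratios was not tested.

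Length moved with the differences across the whole table. Tested genes were divided into 10 bins of about equal size by the authors' gene length. In the shortest bin (57 to 1406 bp) the median log2 fold change was -0.81, and 31.96% of genes fell while 2.10% rose. In the longest bin (9594 to 123179 bp) the median was 0.45, and 1.01% fell while 30.45% rose.

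The markers sit along this gradient. Vtn, Tagln (1988 bp) and Acta2 belong to the second bin, where the median was -0.53, and Cnn1 (2736 bp) to the third, where it was -0.34. Rgs5 (4546 bp) lay in the sixth bin with a median of 0.05 and Pdgfrb in the seventh with 0.10. Abcc9 (8373 bp) and Myh11 lay in the ninth with 0.32, and Cspg4 (11931 bp) and Mylk (11263 bp) in the longest. Of the 2 longest markers, Cspg4 at 0.47 lay at the median of its bin and Mylk at -0.08 below it. Vtn (-0.86), Acta2 (-0.74) and Myh11 (-0.03) also lay below the medians of their bins, and the remaining markers lay at or above theirs.

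**Figure D3:**
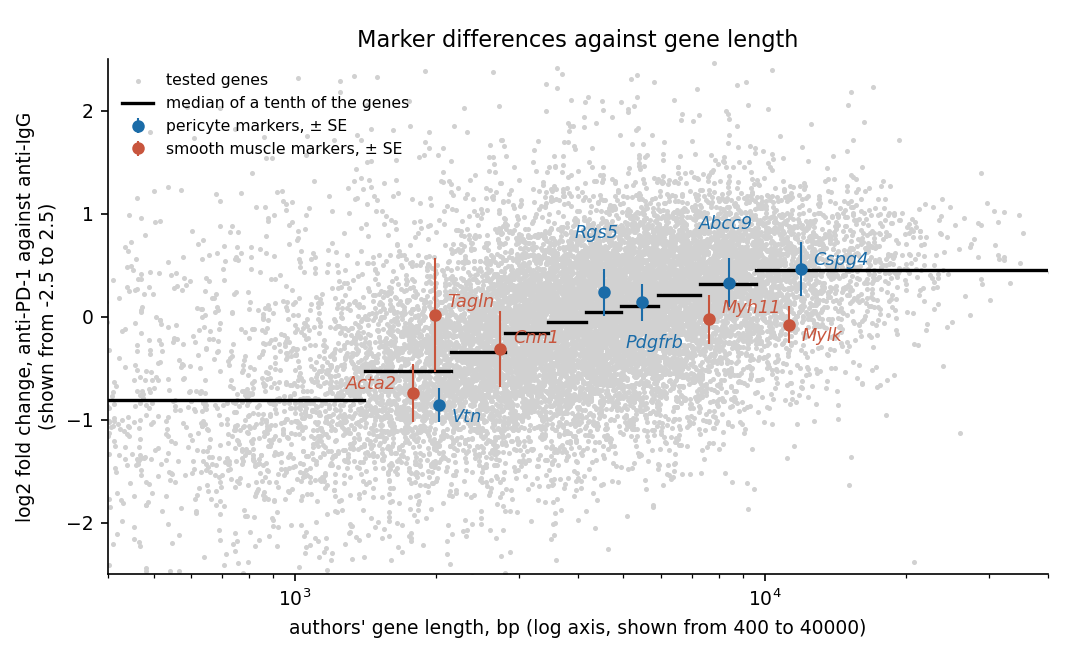
Log2 fold change of each tested gene (grey) against the authors' gene length in bp on a log axis, with black bars at the median of each length bin and the 10 markers with their SE. Medians run from -0.81 in the shortest bin to 0.45 in the longest. Vtn at -0.86, Acta2 at -0.74, Myh11 at -0.03 and Mylk at -0.08 lie below the bars of their bins.

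Values with that gradient taken out are therefore given beside the plain ones. With the trend on coding and 3′ UTR lengths of GENCODE transcripts removed, 5.67% of all tested genes passed (2.96% higher and 2.71% lower), and 0 of the 10 markers did by edgeR, with 1 (Mylk) at an unadjusted p under 0.05. Vtn then had a log2 fold change of -0.34 (edgeR adjusted p = 0.233), Acta2 -0.44 (0.280) and Mylk -0.72 (0.0519). Pdgfrb turned to -0.27, Abcc9 to -0.33 and Cspg4 to -0.01. The medians of the sets were then -0.27 for pericyte and -0.25 for smooth muscle markers. When the trend fitted on the authors' length column was removed, 10.3% of genes passed (5.17% higher and 5.13% lower) and again 0 markers, 2 having an unadjusted p under 0.05 (Vtn and Mylk), with Vtn at -0.42 (0.124) and Acta2 at -0.24 (0.535). The medians were 0.04 and -0.24. What produced the gradient was not tested, and the corrections would also take out any difference between the treatments that follows length.

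**Figure D4:**
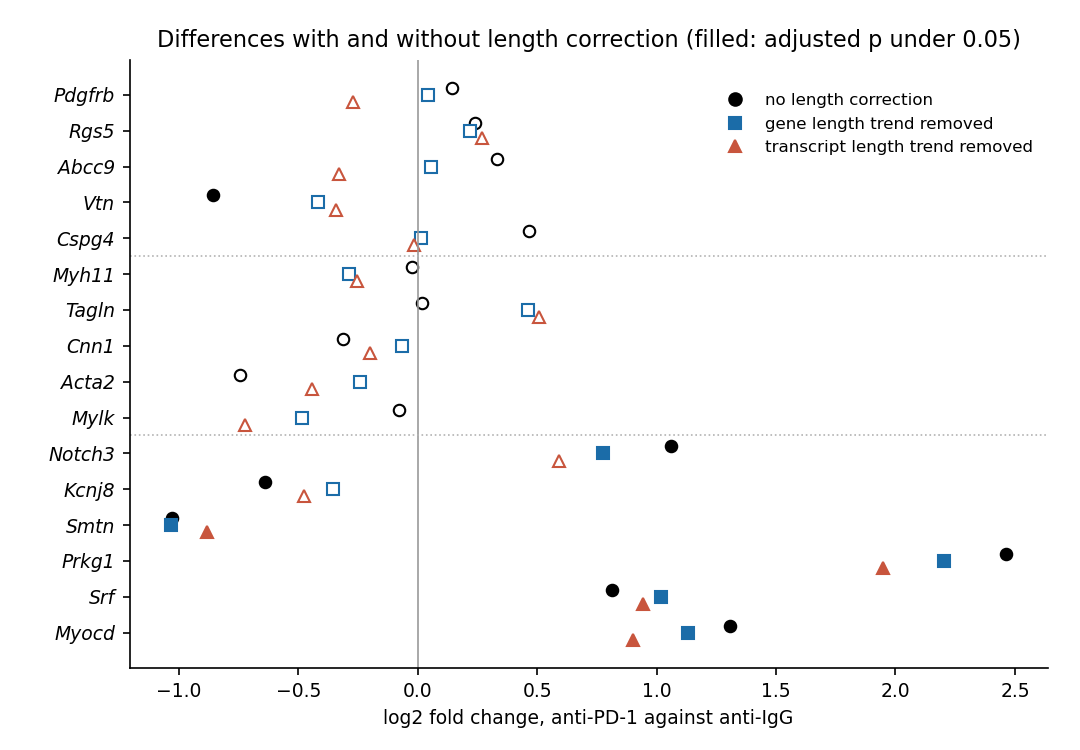
Log2 fold changes of the markers and of Notch3, Kcnj8, Smtn, Prkg1, Srf and Myocd, plain and with either length trend removed. These other genes were chosen for display and do not represent their lists. Prkg1, at 2.46, has the largest log2 fold change of the other list genes past the threshold. Prkg1, Smtn and Myocd are among the 4 such genes that passed in every alternative. Of 30 other list genes past the threshold, 14 passed with the gene length trend removed and 7 with the transcript length trend removed. Vtn moves from -0.86 to -0.42 and -0.34, while Smtn, Prkg1, Srf and Myocd are past the threshold (filled symbols) under all 3 settings.

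Of 20 other genes described in pericytes, 1 rose and 4 fell, beside 10.3% higher and 10.8% lower among all tested genes. The remaining 15 missed the threshold, and the median log2 fold change of the 20 was -0.17. The gene that rose was Notch3, the Notch receptor of mural cells, from 66.82 ± 9.37 to 139.4 ± 26.89 CPM (1.06 on the log2 scale with SE 0.20 and edgeR adjusted p = 0.00864). The 4 that fell were Cox4i2 (-1.28), Higd1b (-1.04), Ndufa4l2 (-0.91) and Kcnj8 (-0.64). Cox4i2, a hypoxia-linked subunit of cytochrome c oxidase, went from 21.52 ± 5.298 to 8.835 ± 1.063 CPM (edgeR adjusted p = 0.00715). With the transcript length trend removed, 0 of the 20 passed by edgeR and 4 had an unadjusted p under 0.05. Notch3 was then at 0.59 (edgeR adjusted p = 0.108), Cox4i2 at -0.40 (0.271) and Higd1b at 0.12, with its sign turned. When the gene length trend was removed instead, 1 gene was higher (Notch3, 0.78, edgeR adjusted p = 0.0340) and 1 lower (P2ry14, -1.18, 0.0198), which had not passed before (-0.81, 0.0573) and is named after its values were seen. Without anti-IgG library 2, Notch3 (0.0580), Higd1b (0.104), Kcnj8 (0.0692) and Ndufa4l2 (0.113) lost their calls. Higd1b, Kcnj8 and Ndufa4l2 also lost theirs without anti-IgG library 3 (0.0796, 0.0615 and 0.125). So did Higd1b without anti-PD-1 library 2 (0.0599) or 3 (0.0610), and Ndufa4l2 without anti-PD-1 library 1 (0.114) or 3 (0.0545). On log2(FPKM + 1) and log2(FPKM + 0.1), limma gave Ndufa4l2 adjusted p-values of 0.0538 and 0.0554.

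Kcnj8 encodes Kir6.1, the pore that pairs with SUR2 in the vascular potassium channel, and so is the partner of Abcc9. Its level was 70.12, 63.21 and 70.06 CPM with anti-IgG and 38.89, 43.19 and 48.67 CPM with anti-PD-1. The groups were separate, as for 41.0% of all tested genes, and the fall was -0.64 (log2, SE 0.17, edgeR adjusted p = 0.0242). The read ratio of Kcnj8 to Abcc9 was 0.178, 0.2047 and 0.3268 with anti-IgG, compared with 0.0986, 0.1057 and 0.1389 for anti-PD-1, without overlap. Kcnj8 (2548 bp) is again the shorter gene, and it was separate on its own. The Kcnj8 call was lost without anti-PD-1 library 1 (0.108) or 2 (0.0586) as well, and with the transcript length trend (-0.48, 0.0997) or the gene length trend (-0.36, 0.173) removed. The other channel subunits, Kcnj11 (0.23, edgeR adjusted p = 0.494) and Abcc8 (-0.40, 0.269), did not pass.

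Signals that recruit pericytes were read from a list of their own. Of 10 genes of PDGF and angiopoietin signalling, 0 passed by edgeR, DESeq2 or limma-voom and 3 had an unadjusted p under 0.05, with a median of 0.13. Pdgfb, the ligand of Pdgfrb, had 97.61 ± 17.33 CPM with anti-IgG and 84.84 ± 10.39 CPM with anti-PD-1 (log2 fold change -0.20, edgeR adjusted p = 0.470). The smallest unadjusted p-values were those of Pdgfra (0.49, edgeR adjusted p = 0.109), Pdgfc (0.99, 0.109) and Pdgfd (0.46, 0.116). Pdgfc passed without anti-PD-1 library 2 (1.34, 0.0299) and in edgeR without the count filter (1.02, 0.0104). Pdgfd passed without anti-IgG library 1 (0.65, 0.0367).

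Among 21 other smooth muscle contractile genes, 4 rose and 2 fell, beside 10.3% higher and 10.8% lower among all tested genes. The remaining 15 missed the threshold, and the median of the 21 was -0.25. Smtn, which encodes the actin-binding protein smoothelin of contractile smooth muscle, had 86.93, 109.6 and 108.7 CPM with anti-IgG and 38.69, 56.37 and 54.38 CPM with anti-PD-1. The groups were separate, as they were for 41.0% of all tested genes in either direction. The log2 fold change was -1.03 (SE 0.20 and edgeR adjusted p = 0.00883). It was -0.88 after removal of the transcript length trend (edgeR adjusted p = 0.0208). An antisense gene, Gm11946, overlaps 16.3% of the exonic bases of Smtn.

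Prkg1, the cGMP-dependent kinase through which nitric oxide relaxes smooth muscle, went the other way. It had 62, 33 and 55 reads with anti-IgG, compared with 213, 373 and 259 for anti-PD-1. The lowest anti-PD-1 library had over 3 times the reads of the highest anti-IgG library. Its log2 fold change was 2.46 (SE 0.31 and edgeR adjusted p = 0.00285), and 1.95 with the transcript length trend removed (0.0112).

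The other smooth muscle genes past the threshold were Kcnma1 (2.23, edgeR adjusted p = 0.0155), Synpo2 (0.76, 0.0180) and Pde5a (0.74, 0.0366), which rose, and Sncg (-1.60, 0.0226), which fell. They encode a calcium-activated potassium channel, an actin-bundling protein, the phosphodiesterase that breaks down cGMP, and gamma-synuclein. Kcnma1 rested on 5, 10 and 21 reads with anti-IgG, compared with 55, 40 and 83 for anti-PD-1. These 4 did not pass after removal of the transcript length trend, at 1.36, -0.02, 0.15 and -0.62. Leaving out anti-IgG library 2 ended all 4 calls (edgeR adjusted p = 0.0752, 0.0900, 0.102 and 0.0812). Leaving out anti-PD-1 library 3 ended those of Kcnma1 (0.0548), Synpo2 (0.0521) and Pde5a (0.0729), and anti-PD-1 library 1 those of Synpo2 (0.0589), Pde5a (0.128) and Sncg (0.0864). Pde5a and Sncg also depended on anti-IgG library 3 (0.105 and 0.0937), and Sncg on anti-PD-1 library 2 (0.0534). Pde5a did not pass with upper quartile scaling (0.0605) or with limma on log2(FPKM + 1) (0.0524, and 0.0550 with the FPKM filter) or log2(FPKM + 0.1) (0.0599). Kcnma1 did not pass on log2(FPKM + 1) (0.17, adjusted p = 0.0942) or log2(FPKM + 0.1) (0.98, 0.0519).

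Of 18 tested genes of myosin light chain phosphorylation, 4 rose and 3 fell, beside 10.3% higher and 10.8% lower among all tested genes. The remaining 11 missed the threshold, and the median of the 18 was 0.19. The genes that rose were Arhgef12 (1.34, edgeR adjusted p = 0.00357), Ppp1r12b (1.22, 0.00644), a targeting subunit of myosin phosphatase, Rock2 (0.98, 0.00779) and Ppp1cb, the catalytic subunit of that phosphatase. The genes that fell were the light chains Myl12a and Myl12b and the phosphatase inhibitor Ppp1r14a. Myl12b rested on 61, 88 and 46 reads with anti-IgG, compared with 28, 16 and 13 for anti-PD-1. A second annotated gene also named Myl12b overlaps 26.68% of its exonic bases, and other genes overlap 19.91% of those of Myl12a. The part of these overlaps in the counts was not tested. With the transcript length trend removed 0 of the 18 passed by edgeR, against 10 with an unadjusted p under 0.05, and Arhgef12, Ppp1r12b and Rock2 were at 0.48, 0.51 and 0.29. With the gene length trend removed 2 were higher (Arhgef12 at 0.90 and Ppp1r12b at 0.75) and 2 lower (Myl12a at -0.88 and Myl12b at -1.60). Without anti-IgG library 2, Ppp1cb (0.159), Myl12a (0.0635), Myl12b (0.0986) and Ppp1r14a (0.0600) lost their calls. Ppp1cb, Myl12a and Ppp1r14a also lost them without anti-IgG library 3 (0.129, 0.0545 and 0.0597) or anti-PD-1 library 1 (0.131, 0.0653 and 0.0610). Ppp1cb lost its call without anti-PD-1 library 2 (0.0512) or 3 (0.0548), and Myl12b without anti-PD-1 library 3 (0.0600).

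Several regulators of contractile gene transcription were higher with anti-PD-1. Of 11 tested SRF and myocardin regulators, 4 rose and 0 fell, beside 10.3% higher and 10.8% lower among all tested genes. The remaining 7 missed the threshold, and the median of the 11 was 0.03. Myocd, which encodes myocardin and is expressed in cardiomyocytes as well as smooth muscle, had 16.49, 14.77 and 16.27 CPM with anti-IgG and 34.35, 48.17 and 35.22 CPM with anti-PD-1. The groups were separate, as for 41.0% of all tested genes, with a log2 fold change of 1.31 (SE 0.19 and edgeR adjusted p = 0.00436). With the transcript length trend removed it was 0.90 (0.0269).

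Srf had 61.93, 51.13 and 79.02 CPM with anti-IgG and 112, 112.5 and 112.9 CPM with anti-PD-1. All 3 anti-PD-1 values lay close together and above the anti-IgG values, a separation that 20.2% of all tested genes showed in this direction. The log2 fold change was 0.81 (SE 0.19 and edgeR adjusted p = 0.0171), and leaving out anti-IgG library 2 (0.0938) or else anti-PD-1 library 1 (0.0543) ended the call. Fhl1 (1.17, edgeR adjusted p = 0.0226), a LIM protein of muscle, and Mkl2 (0.76, 0.0152), a myocardin-related coactivator, rose too. With the transcript length trend removed Srf (0.94, 0.0212) and Fhl1 (1.23, 0.0329) passed and Mkl2 (0.06, 0.868) did not. Mkl2 also lost its call when anti-IgG library 2 was left out (0.0620). Fhl1 lost its call without anti-IgG library 2 (0.0933), anti-IgG library 3 (0.0507), anti-PD-1 library 1 (0.0812) or else anti-PD-1 library 3 (0.0634). These regulators stand beside an Acta2 level of 122.1 ± 37.7 CPM with anti-PD-1 against 204.5 ± 65.59 CPM, and a Myh11 level of 102.4 ± 17.88 against 104.2 ± 30.86 CPM. None of the 5 smooth muscle markers passed the edgeR test (adjusted p = 0.0821 for Acta2). Any link between the regulators and these markers was not tested.

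Other cell types of the ventricle share several of these genes, and their markers are given as values. Of 12 fibroblast markers 0 passed by edgeR, DESeq2 or limma-voom and 2 had an unadjusted p under 0.05, the nearest being Ddr2 (0.48, adjusted p = 0.0852), and their summed level was 3205 to 4283 CPM with anti-IgG and 3331 to 5110 CPM with anti-PD-1. Of 9 activated fibroblast markers 0 passed by these tools and 1 had an unadjusted p under 0.05, with summed levels of 375.2 to 1411 and 843.5 to 2320 CPM; Lox (1.17, edgeR adjusted p = 0.129) passed without anti-PD-1 library 2 (1.58, 0.0147), and Cilp (0.74, 0.247) without the count filter (0.76, 0.0213). By library, the activated fibroblast sum was 375.2, 1379 and 1411 CPM with anti-IgG and 1771, 843.5 and 2320 CPM with anti-PD-1. Acta2 had 149.4, 187 and 277 CPM with anti-IgG and 82.91, 125.2 and 158.1 CPM with anti-PD-1. Library 3 was the highest of its group in both. Anti-PD-1 library 1 had the lowest Acta2 level of all and an activated fibroblast sum above every anti-IgG library. The part of activated fibroblasts in the Acta2 level was not tested. Of 10 endothelial markers 1 rose (Vwf, 1.14, edgeR adjusted p = 0.00883) and 3 fell (Egfl7 at -1.90, Esam at -0.82 and Cldn5). Among all tested genes 10.3% were higher and 10.8% lower. The summed endothelial levels were 1781 to 1825 CPM with anti-IgG and 1450 to 1795 CPM with anti-PD-1. Without anti-IgG library 2 Vwf (0.0558), Esam (0.0812) and Cldn5 (0.141) did not pass. Nor did Esam without anti-PD-1 library 3 (0.0520), or Cldn5 without anti-IgG library 3 (0.159), anti-PD-1 library 1 (0.0983) or else anti-PD-1 library 2 (0.0770). Once the transcript length trend was removed Vwf (0.0320) and Egfl7 (0.00433) passed, and Esam (0.107) and Cldn5 (0.343) did not. With the gene length trend removed Egfl7 passed, and Vwf (0.0984), Esam (0.0550) and Cldn5 (0.443) did not. Cldn5 also missed the threshold in the 3 limma fits on FPKM (0.0587 to 0.0649).

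Of 10 cardiomyocyte markers 1 rose (Ryr2) and 3 fell (Tnnt2, Tnni3 and Myl2), beside 10.3% higher and 10.8% lower among all tested genes. The summed cardiomyocyte levels were 34900 to 44850 CPM with anti-IgG and 22420 to 39190 CPM with anti-PD-1. Tnnt2, Tnni3 and Myl2 lost their calls without anti-IgG library 2 (0.0761, 0.0607 and 0.0600), Tnnt2 and Tnni3 without anti-PD-1 library 1 (0.0744 and 0.0505), and Tnnt2 without anti-IgG library 3 (0.0609) or else anti-PD-1 library 3 (0.0672). None of these 4 passed in edgeR once the transcript length trend was removed (Ryr2 0.102, Tnnt2 0.178, Tnni3 0.194 and Myl2 0.0733). Ttn did (-1.03, 0.0283, against -0.02 and 0.974 without the correction), a gene also named after its values were seen. Its coding length is 105639 bp, so its corrected value rests mainly on the fitted trend at great length. Removal of the gene length trend instead gave Ttn -0.49 (edgeR adjusted p = 0.168). With the gene length trend removed Ryr2, Tnnt2 and Myl2 passed and Tnni3 (0.0550) did not. The atrial markers summed to 0.922 to 2.203 and 0.4487 to 0.9645 CPM, and 1 of the 3, Sln, was at 0 in all libraries. The fat markers summed to 0.1502 to 1.485 and 0 to 0.09609 CPM. The mesothelial markers summed to 12.62 to 14.54 and 9.002 to 14.32 CPM. The part of the cardiomyocyte and endothelial levels in the marker differences was not tested.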

How the data were processed

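mRNA of left ventricles was sequenced in 6 libraries, 3 per group. The authors deposited raw read counts per gene, and FPKM values, in which a count is divided by the gene length and by library size. featureCounts and the mm10 build are named per the submitters' processing notes, without versions; an aligner (not given in the sources used here) cannot be named, and whether counting used strand is not stated. The 397 rows without a gene name stayed in the library totals.

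The test of the counts was edgeR 4.0.16 (R 4.3.3, filterByExpr, TMM, glmQLFit with robust=TRUE, 2-sided F test, Benjamini-Hochberg). limma 3.58.1 and DESeq2 1.42.0 were alternatives. SEs are the fold change divided by the square root of F. Length trends were natural splines of 5 degrees of freedom fitted per library on log2 CPM (prior count 2) and entered as offsets. Transcript lengths were found for 88.36% of tested genes, and the rest got no correction. The steps were tested on simulated data.

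The members, the 15 lists and the tests were chosen with earlier results of these data known. Named genes are the 10 markers, the 3 genes of smallest unadjusted p in each other list, other list members past the threshold, and the 3 genes nearest to Rgs5 and Myh11. Exon overlaps and coordinates came from GENCODE M21, and promoters from RefSeq. Alternatives were other scalings, filters, tools and pseudocounts, the replicate block, both trends, and each library left out.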

Additional observations from a re-analysis of the deposited data

How the results depend on the processing

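The count of genes past the threshold was 3118 without correction, 1526 with the gene length trend removed and 840 with the transcript length trend removed, each over all tested genes. Leaving out 1 library gave 532 (without anti-IgG 2) to 3646 (without anti-IgG 1). Upper quartile scaling shifted the median of all genes to -0.12 and gave 1178 higher of 3200 called, against 1525 of 3118. The pericyte count of 1 was 0 with either trend removed and 0 to 2 with 1 library left out. The smooth muscle count of 0 was 1 without the count filter, 1 by DESeq2, 1 with the replicate block and 0 to 1 with 1 library left out, the gene being Acta2 each time. The difference of smooth muscle and pericyte levels was -0.57 to -0.13 with 1 library left out.

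With the transcript length trend removed, signs turned for Pdgfrb (-0.27), Abcc9 (-0.33), Cspg4 (-0.014), Higd1b (0.12), Pdgfra (-0.13), Ddr2 (-0.16) and Synpo2 (-0.019). Myh11 turned with limma-voom (0.0023) and on log2(FPKM + 1) (0.021, also with the FPKM filter) and log2(FPKM + 0.1) (0.024). Tagln turned with upper quartile scaling (-0.062), limma-voom (-0.24), log2(FPKM + 1) (-0.018), log2(FPKM + 0.1) (-0.17) and the replicate block (-0.18), and it did not pass the FPKM filter. With 1 library left out, Myh11 ranged from -0.22 to 0.23, Tagln from -0.69 to 0.44, Cnn1 from -0.56 to 0.20 and Mylk from -0.15 to 0.044. The cause of these turns was not tested. Of 30 other list genes past the threshold, Prkg1, Smtn, Myocd and Egfl7 passed in every alternative, 7 passed with the transcript length trend removed and 9 without anti-IgG library 2.

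With the replicate number as a block, 3367 genes passed and Acta2 passed (-0.75, edgeR adjusted p = 0.0203). Libraries of the same number deviated with correlations of 0.153, -0.157 and 0.231, and not every library correlated best with its own number. Deviations centred within groups of 3 libraries constrain each other, so these values cannot settle whether the numbers pair the libraries. The labels do not state a pairing.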
